A study of Mus musculus with 6 samples.

Results

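The genes that make, store, take up and break down histamine and serotonin were followed in RUNX1-ETO9a (RE9a) mouse AML cells with and without deletion of *Phf6*. The members were taken by gene name, and all 8 (*Hdc*, *Tph1*, *Ddc*, *Slc18a2*, *Slc6a4*, *Maoa*, *Maob* and *Hnmt*) were found among the 54532 genes of the deposited table. *WT Phf6,RE9a* cells carried the floxed *Phf6* fl/y allele without Cre, and *VC Phf6,RE9a* cells carried the same allele with Vav1-Cre, which acts in blood cells. Cells of both groups came from E14.5 fetal liver of male donors, were transduced with a retrovirus for RE9a and GFP, and were grown by serial transplantation into male recipients. GFP+ leukemia cells were sorted from bone marrow, and total RNA of 3 libraries per group was sequenced (*WT Phf6,RE9a* replicates 1, 2 and 3, *VC Phf6,RE9a* replicates 11, 12 and 13). The male mice were 6 to 8 weeks old. The passage of the sequenced cells, and whether the 3 libraries of a group came from separate leukemias, were not given, so the p-values measure only the spread between these libraries. Total counts per library were 16817994, 15675358 and 16691325 for the *WT Phf6,RE9a* group, and 16315278, 16095424 and 16039999 for the *VC Phf6,RE9a* group. At this depth 3 counts came to between 0.178 and 0.191 CPM (counts scaled to the library total). For a count of 0, 3 counts is about the 1-sided 95% upper bound, for counting error only.

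Histamine is made in a single step from histidine by histidine decarboxylase. Serotonin is made from tryptophan by hydroxylation, which limits the rate, followed by decarboxylation. Both amines are packed into granules by a vesicular monoamine transporter. Outside the cell, serotonin is cleared by an uptake transporter at the plasma membrane, and inside the cell amines are oxidised by monoamine oxidases or, for histamine, methylated. In blood, mast cells and basophils are known for making and storing histamine. Rodent mast cells also store serotonin, while platelets take it up from plasma.

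*Phf6* itself was read at 1044, 827 and 1142 counts in *WT Phf6,RE9a* libraries and at 388, 314 and 331 counts in *VC Phf6,RE9a* libraries. Each *VC Phf6,RE9a* library lay below every *WT Phf6,RE9a* library, in the direction of the labels. The mean level was 64.3 ± 7.15 CPM without Cre and 20.3 ± 2.37 CPM with Vav1-Cre (SD, n = 3), a log2 fold change of -1.66 (SE 0.129, adjusted p = 9.32e-05, edgeR). Which exons the remaining reads cover cannot be read from counts per gene. Here and throughout, CPM are scaled by TMM, fold changes compare *VC Phf6,RE9a* with *WT Phf6,RE9a* cells, and adjusted p-values come from edgeR's quasi-likelihood test over all 14169 genes that passed its count filter.

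Of the 8 genes, *Hdc*, *Tph1*, *Slc18a2* and *Slc6a4* fell in *VC Phf6,RE9a* cells and *Ddc* rose. *Maob* did not pass the threshold, and *Maoa* and *Hnmt* had too few counts to be tested. Thus 5 of the 6 tested members were called (44.2% of all tested genes were). Of these, 4 were called lower, where 22.7% of all tested genes were, and 1 was called higher, where 21.5% of all tested genes were. All 4 lower members changed by at least 2-fold, which 11.5% of tested genes did in that direction, and 3 of them by at least 4-fold, compared with 5.23%. For 5 of the 6 tested members the libraries of the groups lay fully apart, as they did for 57.3% of all tested genes. Of these 5, 4 lay lower in *VC Phf6,RE9a* cells, where 28.4% of tested genes did, and 1 lay higher, where 28.9% did. The median log2 fold change of the 6 tested members was -1.90, and that of all tested genes was 0.01. The members were chosen with earlier results of these data known, so these shares and medians are given as a description. The plot of levels in each library shows the members in the order of their roles.

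**Figure D1:**
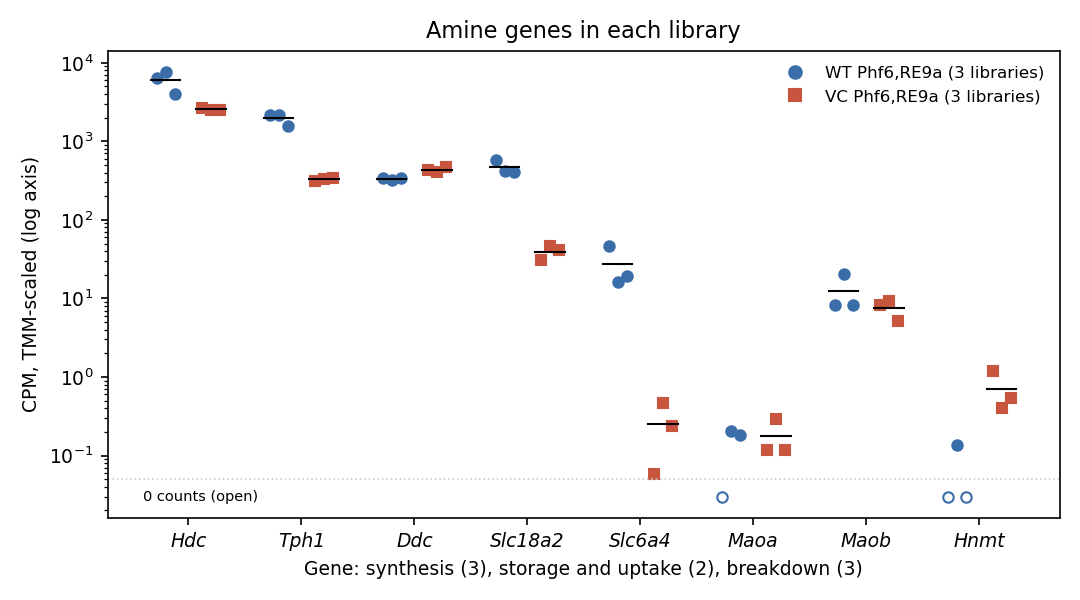
TMM-scaled CPM (log axis) of the 8 genes in each library, with *WT Phf6,RE9a* as circles and *VC Phf6,RE9a* as squares, horizontal bars at the mean of a group without a count of 0, and open symbols for 0 counts. The groups separate for *Hdc*, *Tph1*, *Slc18a2* and *Slc6a4* (lower in *VC Phf6,RE9a*) and *Ddc* (higher), and they overlap for *Maob*.

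The 250 bases before the start of transcription are given for the 5 members that passed the threshold, so that their starts can be compared. They are RefSeq sequences of GRCm38.p6, written 5′ to 3′ on the strand of the gene. Capitals mark every match, on either strand, to 4 motifs. The GATA-type motif was searched as AGATAA, which on the opposite strand reads TTATCT. The RUNX-type motif was TGTGGT, which on the opposite strand reads ACCACA. The E-box was CANNTG, and the TATA-type motif was TATAAA, which on the opposite strand reads TTTATA.
*Hdc*, chr2:126618679-126618928, minus strand: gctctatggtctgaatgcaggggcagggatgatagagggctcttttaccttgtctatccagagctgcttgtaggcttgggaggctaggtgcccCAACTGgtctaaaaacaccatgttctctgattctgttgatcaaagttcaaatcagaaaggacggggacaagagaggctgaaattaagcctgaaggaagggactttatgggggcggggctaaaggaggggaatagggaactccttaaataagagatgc
*Tph1*, chr7:46672538-46672787, minus strand: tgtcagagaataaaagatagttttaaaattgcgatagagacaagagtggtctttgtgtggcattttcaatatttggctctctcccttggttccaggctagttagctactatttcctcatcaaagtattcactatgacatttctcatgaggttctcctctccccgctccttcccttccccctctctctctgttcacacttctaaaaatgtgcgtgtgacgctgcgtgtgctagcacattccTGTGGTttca
*Ddc*, chr11:11898145-11898394, minus strand: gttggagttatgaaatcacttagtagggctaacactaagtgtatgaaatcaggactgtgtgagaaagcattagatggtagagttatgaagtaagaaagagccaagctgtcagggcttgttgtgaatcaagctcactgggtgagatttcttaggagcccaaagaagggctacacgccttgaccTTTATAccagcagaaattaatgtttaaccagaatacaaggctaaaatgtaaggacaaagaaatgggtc
*Slc18a2*, chr19:59260628-59260877, plus strand: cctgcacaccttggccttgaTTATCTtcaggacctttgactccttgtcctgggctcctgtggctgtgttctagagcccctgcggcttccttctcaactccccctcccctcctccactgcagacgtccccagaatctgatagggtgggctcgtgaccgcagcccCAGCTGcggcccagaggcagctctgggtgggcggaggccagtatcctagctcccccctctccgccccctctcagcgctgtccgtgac
*Slc6a4*, chr11:76998347-76998596, plus strand: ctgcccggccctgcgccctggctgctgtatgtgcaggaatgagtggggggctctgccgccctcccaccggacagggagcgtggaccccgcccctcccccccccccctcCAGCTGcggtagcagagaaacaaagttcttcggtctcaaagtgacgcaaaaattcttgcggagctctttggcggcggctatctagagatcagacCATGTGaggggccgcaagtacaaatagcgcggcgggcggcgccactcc
None of these 5 windows overlapped an annotated exon of its own gene, and exons of other genes were not checked. The *Slc18a2* window lies within the span of *Gm29261* (chr19:59259512-59261419, minus strand), which had at most 3 counts in any library. Of the 32851 RefSeq promoters of the same length, 9.99% held the GATA-type letters, 14.0% the RUNX-type letters, 66.2% an E-box and 12.4% the TATA-type letters. The window of *Slc18a2* held a GATA-type match starting 230 bases before the start and an E-box 87 bases before it. The RUNX-type letters were found in the window of *Tph1*, 10 bases before the start, and in none of the other 4. The window of *Hdc* held an E-box 157 bases before the start, that of *Slc6a4* held 2 E-boxes, and that of *Ddc* held the TATA-type letters 68 bases before the start. No motif was shared by all 4 lower members. A match describes the letters and was not tested as a binding site. *Tph1* and *Ddc* each have 2 RefSeq starts, of which the one nearest the 5′ end of the deposited gene is shown, and the *Hdc* start lies 621 bases inside the deposited gene.

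Synthesis was led by *Hdc* (GRCm38 chr2:126593667-126619299, minus strand), which encodes the decarboxylase that makes histamine. *Hdc* was read at 97240, 112487 and 65652 counts in *WT Phf6,RE9a* libraries, and at 45435, 42936 and 42152 counts in *VC Phf6,RE9a* libraries. By FPKM, which divide by gene length, it ranked 27th, 18th and 43rd of all genes in the *WT Phf6,RE9a* libraries, and 77th, 75th and 84th in the *VC Phf6,RE9a* libraries. On the TMM scale it stood at 6313, 7632 and 3973 CPM in the first group and at 2683, 2502 and 2504 CPM in the second. The *WT Phf6,RE9a* libraries were the more spread, with replicate 3 the lowest, yet all 3 lay above the *VC Phf6,RE9a* libraries. *Hdc* fell 2.33-fold (log2 fold change -1.22, SE 0.229, adjusted p = 0.00416 from edgeR). As a share of all counts, *Hdc* took 0.578%, 0.718% and 0.393% in *WT Phf6,RE9a* libraries and 0.278%, 0.267% and 0.263% in *VC Phf6,RE9a* libraries, each with an exact 95% Clopper-Pearson interval narrower than 0.01 percentage points.

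*Tph1* (chr7:46644641-46672537, minus strand) encodes tryptophan hydroxylase, the rate-limiting enzyme of serotonin synthesis outside the nervous system. Libraries of *WT Phf6,RE9a* cells held 33646, 31495 and 26187 counts of it, and those of *VC Phf6,RE9a* cells 5274, 5657 and 5803. The levels of 2184, 2137 and 1585 CPM in *WT Phf6,RE9a* cells were well apart from the 311, 330 and 345 CPM in *VC Phf6,RE9a* cells. *Tph1* fell 5.99-fold (log2 fold change -2.58, SE 0.150, adjusted p = 3.68e-05, edgeR). By FPKM it ranked 117th, 106th and 155th of all genes in *WT Phf6,RE9a* libraries and 992nd, 907th and 871st in *VC Phf6,RE9a* libraries.

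*Ddc* (chr11:11814101-11898144, minus strand) encodes the aromatic amino acid decarboxylase that takes the product of *Tph1* to serotonin, and that also makes dopamine. It was the only one of the 6 tested members to be called higher. It had 5197, 4810 and 5589 counts in the libraries of *WT Phf6,RE9a* cells, against 7299, 6943 and 8014 in those of *VC Phf6,RE9a* cells. The levels were 337, 326 and 338 CPM against 431, 405 and 476 CPM, so that the *WT Phf6,RE9a* libraries were close together and below each *VC Phf6,RE9a* library. The rise was 1.31-fold (log2 fold change 0.39, SE 0.0916, adjusted p = 0.0111, edgeR), the smallest change among the 5 called members. Without *VC Phf6,RE9a* replicate 13 it no longer passed, with a log2 fold change of 0.32 and an edgeR adjusted p of 0.0534. A non-coding gene, *1700042O10Rik*, lies on the opposite strand within the span of *Ddc* (chr11:11868123-11885321, plus strand) and rose with it, from 52.1 ± 4.14 to 109 ± 14.0 CPM (SD, n = 3; log2 fold change 1.06, SE 0.116, adjusted p = 0.00037, edgeR). None of its 1075 exon bases overlapped an exon of *Ddc*. Whether the counting used strand was not given.

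The largest fitted decreases were those of the storage and uptake genes. *Slc18a2* (chr19:59260878-59296012, plus strand) encodes the vesicular monoamine transporter that loads histamine and serotonin into granules. The *WT Phf6,RE9a* libraries held 8787, 6189 and 6661 counts, and the *VC Phf6,RE9a* libraries 522, 788 and 691. Levels in *WT Phf6,RE9a* cells (570, 420 and 403 CPM) lay above all those in *VC Phf6,RE9a* cells (30.8, 45.9 and 41.1 CPM). *Slc18a2* fell 11.8-fold (log2 fold change -3.56, SE 0.200, adjusted p = 3.16e-05, edgeR), and 1.90% of the tested genes had a lower fold change.

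*Slc6a4* (chr11:76998603-77032340, plus strand) encodes the serotonin transporter of the plasma membrane. It was read 712, 242 and 320 times in *WT Phf6,RE9a* libraries, but only 1, 8 and 4 times in *VC Phf6,RE9a* libraries. *WT Phf6,RE9a* replicate 1 was the highest at 46.2 CPM, and the others stood at 16.4 and 19.4 CPM, all above the *VC Phf6,RE9a* libraries, which held at most 0.466 CPM. The fitted log2 fold change was -6.70 (SE 0.645, adjusted p = 0.000216, edgeR), and 0.409% of the tested genes had a lower one. With so few reads in *VC Phf6,RE9a* cells this size is poorly fixed. Summed over libraries, 1274 counts against 13 gave a *WT Phf6,RE9a* to *VC Phf6,RE9a* ratio of 107. Its 95% interval, for counting error only, was 62.3 to 201. Limma on log2(FPKM + 1) gave a log2 fold change of -2.61, and on log2(FPKM + 0.1) it gave -5.18. Adding a constant to FPKM understates changes of low genes. DESeq2 gave -6.76, and edgeR with RLE size factors gave -6.71.

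The breakdown genes were low, at no more than 7.26 FPKM in any library. *Maoa* (chrX:16619698-16687818, plus strand) and *Maob* (chrX:16709282-16817366, minus strand) are neighbours, 21463 bases apart, and encode the monoamine oxidases. *Maob* was read at 126, 301 and 138 counts in *WT Phf6,RE9a* libraries and at 139, 158 and 87 counts in *VC Phf6,RE9a* libraries. The groups overlapped, and *WT Phf6,RE9a* replicate 2 was the highest of the 6 libraries. Its level was 12.3 ± 7.02 CPM in *WT Phf6,RE9a* cells and 7.53 ± 2.10 CPM in *VC Phf6,RE9a* cells (SD, n = 3). The log2 fold change of -0.71 (SE 0.403, adjusted p = 0.193, edgeR) did not pass the threshold, and without *WT Phf6,RE9a* replicate 2 it was -0.15. *Maoa*, whose product prefers serotonin, had 0, 3 and 3 counts in *WT Phf6,RE9a* libraries and 2, 5 and 2 counts in *VC Phf6,RE9a* libraries, so that a difference was not detectable at this depth.

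*Hnmt* (chr2:24002910-24049394, minus strand) encodes the methyltransferase that inactivates histamine in the cytosol. It had 0, 2 and 0 counts in *WT Phf6,RE9a* libraries and 20, 7 and 9 counts in *VC Phf6,RE9a* libraries, and it was removed by the count filter. Every *VC Phf6,RE9a* library lay above every *WT Phf6,RE9a* library. Summed over libraries, 36 counts against 2 gave a *VC Phf6,RE9a* to *WT Phf6,RE9a* ratio of 16.5, with a 95% interval for counting error only from 4.25 to 141. Without the filter, edgeR gave a log2 fold change of 3.81 (SE 0.984, adjusted p = 0.0107), and DESeq2 gave 4.01 (SE 1.41, adjusted p = 0.0156). Its level in *VC Phf6,RE9a* cells was 0.708 ± 0.415 CPM (SD, n = 3).

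**Figure D2:**
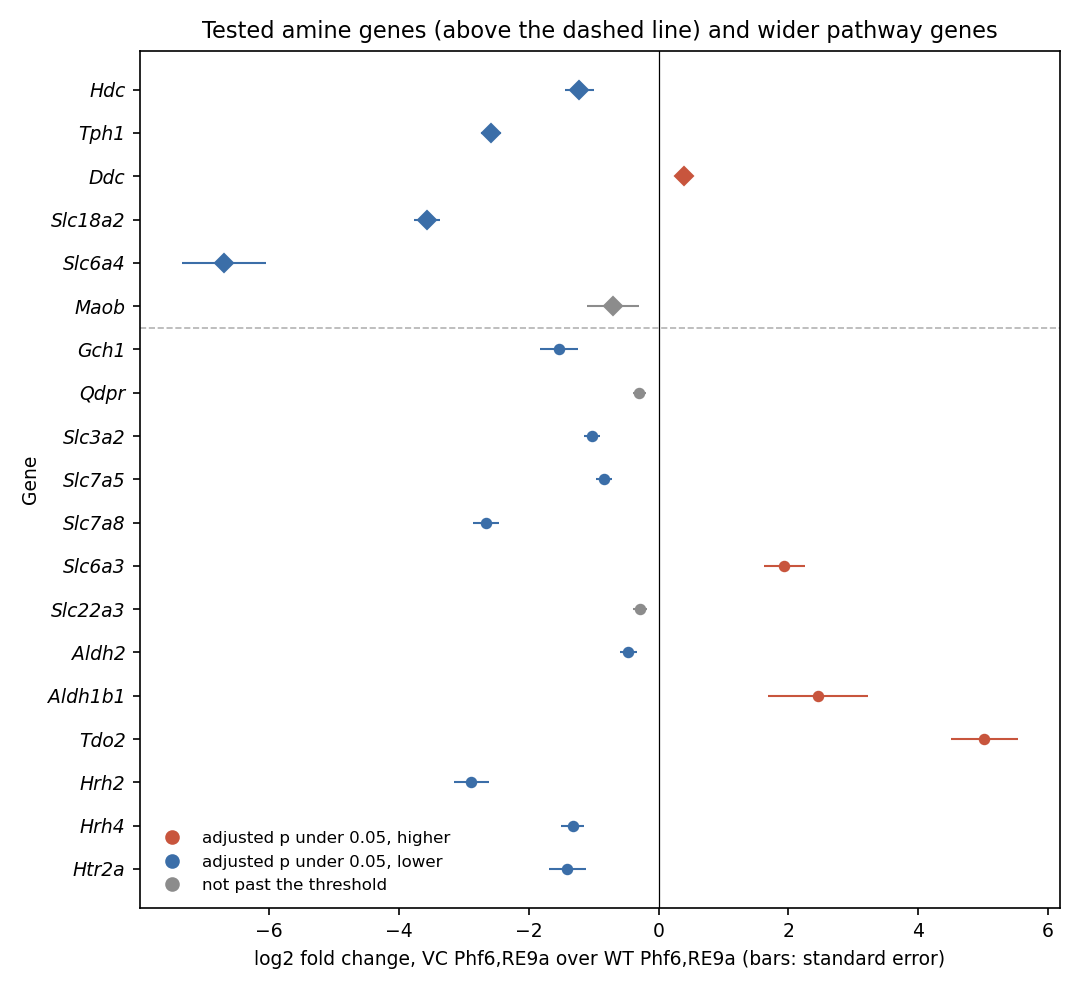
Log2 fold change from edgeR, positive where *VC Phf6,RE9a* libraries were higher, for the tested members and for the tested genes of the wider pathway that the text describes, with bars of 1 SE. *Slc6a4* (-6.70) and *Slc18a2* (-3.56) lie farthest below 0, *Ddc* lies at 0.39, and *Tdo2* (5.02) lies farthest above 0.

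Levels of different genes were compared in the authors' FPKM, which divide by gene length. For *Slc18a2* the deposited length is 3803 bases, against 5225 exonic bases in the GENCODE M21 annotation. Its FPKM level and the size of its ratios to other genes depend on this length, but the comparison of groups does not. In *WT Phf6,RE9a* cells the order was *Hdc* (929 ± 289 FPKM), *Tph1* (317 ± 54.9), *Slc18a2* (121 ± 24.8), *Ddc* (74.4 ± 1.62), *Slc6a4* (6.01 ± 3.64), *Maob* (4.39 ± 2.49), and *Maoa* and *Hnmt* at no more than 0.0761 FPKM in any library (SD, n = 3). Among neighbours in this order, the ranges overlapped for *Slc6a4* and *Maob* and for *Maoa* and *Hnmt*. In *VC Phf6,RE9a* cells *Hdc* was again first (396 ± 16.1 FPKM), followed by *Ddc* (96.7 ± 7.47), *Tph1* (52.6 ± 2.55), *Slc18a2* (10.2 ± 2.02), *Maob* (2.67 ± 0.757), *Hnmt* (0.395 ± 0.231), *Slc6a4* (0.0555 ± 0.0448) and *Maoa* (0.0418 ± 0.0239). The ranges of *Slc6a4* and *Maoa* overlapped, and the other neighbours were apart.

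The order of the serotonin enzymes thus turned over. The FPKM ratio of *Tph1* to *Ddc* within a library was 4.68, 4.73 and 3.39 in *WT Phf6,RE9a* libraries and 0.522, 0.589 and 0.523 in *VC Phf6,RE9a* libraries. The histamine enzyme gained on the hydroxylase, with a ratio of *Hdc* to *Tph1* of 2.79, 3.45 and 2.42 in *WT Phf6,RE9a* libraries and 8.32, 7.33 and 7.02 in *VC Phf6,RE9a* libraries. It also gained on the granule transporter. The ratio of *Hdc* to *Slc18a2* was 6.59, 10.8 and 5.87 in *WT Phf6,RE9a* libraries and 51.8, 32.4 and 36.3 in *VC Phf6,RE9a* libraries. Likewise *Tph1* over *Slc18a2* went from 2.36, 3.14 and 2.42 to 6.23, 4.42 and 5.17. By contrast, *Hdc* over *Ddc* went down, from 13.1, 16.3 and 8.20 to 4.35, 4.32 and 3.67. *Slc18a2* over *Slc6a4* was 14.7, 30.5 and 24.8 in *WT Phf6,RE9a* libraries and 622, 117 and 206 in *VC Phf6,RE9a* libraries, the last 3 resting on 1, 8 and 4 counts of *Slc6a4*. The groups did not overlap in any of these 6 ratios. They were chosen with the fold changes known and are given as a description, and a ratio within a library does not depend on how libraries are scaled to each other.

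**Figure D3:**
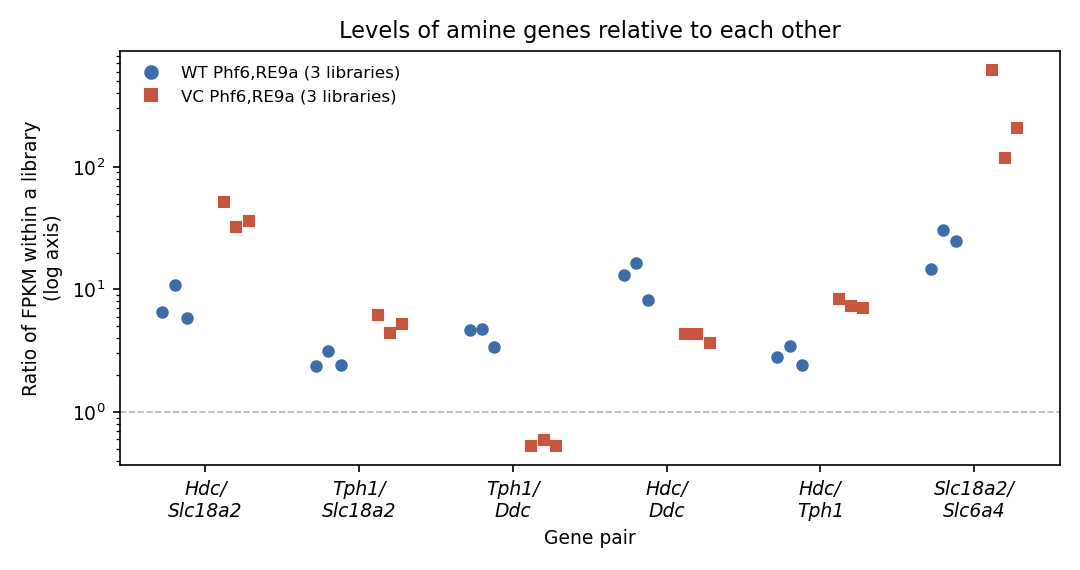
FPKM ratios of pairs of members within each library (log axis), *WT Phf6,RE9a* as circles and *VC Phf6,RE9a* as squares. *Tph1* over *Ddc* lies above 1 in each *WT Phf6,RE9a* library (3.39 to 4.73) and below 1 in each *VC Phf6,RE9a* library (0.522 to 0.589), and *Hdc* over *Slc18a2* is higher in each *VC Phf6,RE9a* library.

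The other genes of amine handling were taken from 7 lists with 53 genes. Of these, 23 could be tested, 7 were called higher (21.5% of all tested genes were) and 8 lower (22.7%). Asking also for at least a 2-fold change left 3 higher (9.95% of tested genes) and 6 lower (11.5%). Their median log2 fold change was -0.21, against 0.01 for all tested genes. A further 22 had no count in any library. None of the 6 genes of other amine synthesis (*Tph2*, *Th*, *Dbh*, *Pnmt*, *Asmt* and *Aanat*) had enough counts to be tested. *Asmt*, the last enzyme of melatonin synthesis, had the highest level of them, with 7, 1 and 0 counts in *WT Phf6,RE9a* libraries and 7, 3 and 0 counts in *VC Phf6,RE9a* libraries.

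The precursors enter by amino acid transporters. All 4 listed were called (44.2% of all tested genes were), with *Slc3a2*, *Slc7a5* and *Slc7a8* lower (22.7% of tested genes) and *Slc16a10* higher (21.5%). *Slc7a8* fell most, from 704, 1086 and 674 CPM in *WT Phf6,RE9a* libraries to 121, 123 and 145 CPM in *VC Phf6,RE9a* libraries (log2 fold change -2.66, SE 0.202, adjusted p = 8.5e-05, edgeR). The groups were far apart. *Slc7a5*, the light chain of the large neutral amino acid transporter, went from 626 ± 99.0 to 348 ± 9.73 CPM (log2 fold change -0.85, SE 0.126, adjusted p = 0.0015, edgeR). *Slc3a2*, its heavy chain, went from 540 ± 87.8 to 264 ± 6.05 CPM (SD, n = 3; log2 fold change -1.03, SE 0.127, adjusted p = 0.000621, edgeR).

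*Tph1* needs tetrahydrobiopterin. Of the 8 genes of this cofactor, 7 were tested, 1 was called lower and 2 higher (22.7% and 21.5% of all tested genes), so that 3 of 7 were called against 44.2% of all tested genes. *Gch1*, the first and rate-limiting enzyme, was at 161, 149 and 90.4 CPM in *WT Phf6,RE9a* libraries and at 65.7, 39.5 and 32.9 CPM in *VC Phf6,RE9a* libraries (log2 fold change -1.54, SE 0.299, adjusted p = 0.00486, edgeR). Each *VC Phf6,RE9a* library lay below every *WT Phf6,RE9a* library. *Qdpr*, which regenerates the cofactor and had the highest mean FPKM of this list, had a log2 fold change of -0.30 and did not pass (adjusted p = 0.0544, edgeR).

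Among other amine transporters, 3 of 8 were tested and 1 was called, a share near the 44.2% of all tested genes. *Slc22a3*, a low-affinity organic cation transporter that carries histamine, had the highest mean FPKM and stood at 306 ± 31.4 CPM in *WT Phf6,RE9a* cells and 251 ± 25.4 CPM in *VC Phf6,RE9a* cells (SD, n = 3; log2 fold change -0.29, adjusted p = 0.0717, edgeR). *Slc6a3*, the dopamine transporter, rose from 21, 28 and 43 counts to 118, 161 and 104 counts (log2 fold change 1.93, SE 0.314, adjusted p = 0.00219, edgeR). This was the opposite direction to the serotonin transporter *Slc6a4*, with levels in *VC Phf6,RE9a* cells of 2.15 FPKM for *Slc6a3* and 0.0555 FPKM for *Slc6a4*.

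Of the 9 genes of other breakdown, 5 were tested, 3 were called higher and 1 lower (21.5% and 22.7% of all tested genes). *Tdo2*, which opens the ring of tryptophan and so competes with *Tph1* for it, had 12, 60 and 15 counts in *WT Phf6,RE9a* libraries and 1229, 1082 and 817 counts in *VC Phf6,RE9a* libraries. It was low in every *WT Phf6,RE9a* library and rose in *VC Phf6,RE9a* cells by a log2 fold change of 5.02 (SE 0.519, adjusted p = 0.000289, edgeR). The ratio of its summed counts was 32.9, with a 95% interval for counting error only from 26.6 to 41.2. *Aldh1b1*, an aldehyde dehydrogenase, had 5, 0 and 15 counts against 52, 25 and 42 (log2 fold change 2.45, SE 0.776, adjusted p = 0.0351, edgeR). *Aldh2*, with the highest mean FPKM of the list, fell from 444 ± 32.1 to 320 ± 52.3 CPM (SD, n = 3; log2 fold change -0.47, SE 0.131, adjusted p = 0.0212, edgeR).

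Of the 4 receptor genes that could be tested, 3 were called lower and none higher, where 22.7% and 21.5% of all tested genes were. *Hrh2* and *Hrh4* were the only tested genes of the 4 histamine receptors, and the other two had no counts in any library. *Hrh2* had 387, 458 and 561 counts in *WT Phf6,RE9a* libraries and 75, 89 and 43 counts in *VC Phf6,RE9a* libraries (log2 fold change -2.89, SE 0.265, adjusted p = 0.000177, edgeR). *Hrh4*, known from mast cells, basophils and eosinophils, had 853, 1031 and 823 counts against 348, 361 and 478 (log2 fold change -1.32, SE 0.175, adjusted p = 0.000859, edgeR). For neither did the groups overlap. Of the 14 serotonin receptors, 11 had no counts in any library and 2 were tested. *Htr2a* had 398, 881 and 609 counts in *WT Phf6,RE9a* libraries and 259, 298 and 228 counts in *VC Phf6,RE9a* libraries (log2 fold change -1.41, SE 0.288, adjusted p = 0.00609, edgeR).

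The 3 tested members with the highest mean FPKM over all 6 libraries were *Hdc*, *Tph1* and *Ddc*. In *WT Phf6,RE9a* cells alone *Slc18a2* ranked above *Ddc* (121 against 74.4 FPKM). The tested genes with the pattern most like *Hdc*, *Tph1* and *Ddc* were found by the root mean square difference of centred log2 CPM over the 6 libraries. For *Hdc* these were *Cd274* (0.0753), *Flcn* (0.0774) and *Dennd1b* (0.0787), for *Tph1* they were *Ext1* (0.0813), *Uap1l1* (0.111) and *4930412C18Rik* (0.114), and for *Ddc* they were *Eif4ebp2* (0.0329), *Ttc9c* (0.0361) and *Dnd1* (0.0366). A value of 0 would be an identical profile. None of these genes was a member.

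Markers of cells known to hold these amines were read in the same libraries. Of 20 mast cell and basophil markers, 19 were tested, 15 were called lower and 1 higher (22.7% and 21.5% of all tested genes). Their summed level was 27103, 29323 and 19447 CPM in *WT Phf6,RE9a* libraries and 4936, 5306 and 5906 CPM in *VC Phf6,RE9a* libraries. Every *VC Phf6,RE9a* library lay below every *WT Phf6,RE9a* library. In *VC Phf6,RE9a* cells the largest parts of the sum were *Il1rl1*, *Ms4a2*, *Gata2* and *Cd200r3* (means of 2282, 1076, 859 and 390 CPM), picked out after their values were seen, and no other marker was above 274 CPM. *Cd200r3* was the 1 marker called higher, from 291 ± 38.2 to 390 ± 55.8 CPM (SD, n = 3; log2 fold change 0.42, adjusted p = 0.0395, edgeR). The proteases *Mcpt1* and *Mcpt2* did not pass (log2 fold changes 0.23 and 0.18, adjusted p = 0.804 and 0.814, edgeR). *Cpa3*, a mast cell carboxypeptidase and the highest of the list in CPM, fell from 6749 ± 1507 to 274 ± 116 CPM (SD, n = 3; log2 fold change -4.62, SE 0.369, adjusted p = 0.000103, edgeR). The chymase *Cma1* went from 3631 to 72.7 CPM, and *Il1rl1*, the interleukin-33 receptor, from 4512 to 2282 CPM on average. Among the smallest p-values, *Fcer1a*, the alpha chain of the IgE receptor, went from 603 to 5.30 CPM (log2 fold change -6.83), and *Mrgprb2*, a mast cell receptor, from 169 to 0.275 CPM (-9.22 as fitted, with 0, 6 and 8 counts in *VC Phf6,RE9a* libraries). *Ms4a2*, the beta chain of the IgE receptor, which was singled out after its values were seen, was at 1180.0 ± 96.2 CPM in *WT Phf6,RE9a* cells and 1076 ± 215 CPM in *VC Phf6,RE9a* cells and did not pass (log2 fold change -0.13, adjusted p = 0.519, edgeR). No marker of this list was at 0 in all 6 libraries, and *Mrgprb1* had 0 counts in each *VC Phf6,RE9a* library. In bulk RNA, fewer cells of a type and less RNA per cell cannot be told apart. The part of these cells in the values of *Hdc*, *Tph1*, *Slc18a2* and *Slc6a4* was not tested.

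The 14 megakaryocyte and platelet markers summed to 897, 829 and 700 CPM in *WT Phf6,RE9a* libraries and to 415, 443 and 452 CPM in *VC Phf6,RE9a* libraries, with 4 called lower and 3 higher of 8 tested (22.7% and 21.5% of all tested genes). *Nbeal2*, needed for platelet granules, had the highest CPM (361 ± 52.4 against 193 ± 3.29 CPM), *Itga2b* went from 237 to 14.3 CPM and *Gp1ba* from 69.9 to 24.3 CPM, whereas *Gp5* rose from 107 to 174 CPM. The other two called higher were *Treml1* (7.16 ± 4.57 to 24.8 ± 8.17 CPM; log2 fold change 1.79, adjusted p = 0.0239, edgeR) and *Gp9* (0.110 to 1.20 CPM; 3.39, adjusted p = 0.00455, edgeR), both outside the naming rule. Also outside it, *Gp1bb* had no counts in any library, the platelet chemokine *Ppbp* at most 7, and the platelet chemokine *Pf4* between 8 and 35.

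For 6 other cell types no marker was called lower. Of all tested genes, 21.5% were called higher and 22.7% lower. All 10 neutrophil granule markers were called higher in *VC Phf6,RE9a* cells. Their sum was 291 ± 188 CPM in *WT Phf6,RE9a* cells and 2441 ± 1408 CPM in *VC Phf6,RE9a* cells (SD, n = 3). Of these markers, *S100a9* was highest in *VC Phf6,RE9a* cells (584 CPM) and *Ngp* in *WT Phf6,RE9a* cells (66.9 CPM, against 63.4 CPM for *S100a9*). All 10 erythroid markers were also called higher (2121 ± 418 to 5973 ± 498 CPM, led by *Hbb-bs*). So were 5 of 7 eosinophil markers (16.5 to 65.8 CPM) and 5 of 6 tested B cell markers (4.33 to 27.8 CPM). The 1 T cell marker tested was called higher too (1.86 to 9.42 CPM for the list, led by *Lck*). Of the eosinophil markers, *Prg2* was highest in *VC Phf6,RE9a* cells (30.1 CPM) and *Il5ra* in *WT Phf6,RE9a* cells (11.1 CPM, against 3.46 CPM for *Prg2*). Of the macrophage markers only 2 of 8 tested were called higher, a share near that of all tested genes, and the other 6 did not pass (17.6 to 32.2 CPM for the list, led by *Vcam1*). The immature myeloid markers, against which the leukemia label was read, summed to 3231 ± 707 CPM in *WT Phf6,RE9a* cells and 796 ± 164 CPM in *VC Phf6,RE9a* cells, with 6 called higher and 4 lower of 13 and a median log2 fold change of 0.86. Their lower sum rested on *Kit* and *Cd34*, found after the values were seen. Without these 2 markers the other 11 summed to 428 ± 18.1 CPM without Cre and 507 ± 157 CPM with Vav1-Cre (SD, n = 3), and the groups overlapped. *Cd34* stood at 205, 773 and 170 CPM in *WT Phf6,RE9a* libraries, the highest in replicate 2, and at 7.62, 31.6 and 7.13 CPM in *VC Phf6,RE9a* libraries. The other two called lower were *Cd33* (122 ± 25.6 to 18.7 ± 10.8 CPM) and *Fcgr3* (123 ± 14.3 to 59.1 ± 12.8 CPM). *Kit*, which the mast cell list also holds, had the highest CPM of these markers over all 6 libraries (means of 2419.7 without Cre and, with Vav1-Cre, 273). The part of these other cells in the results was not tested either.

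**Figure D4:**
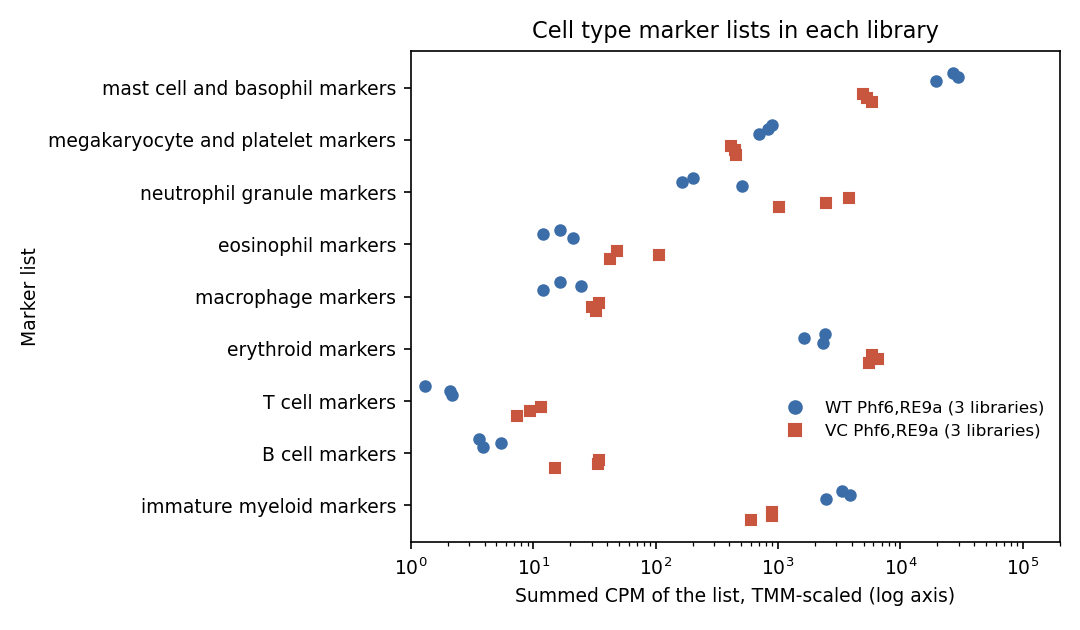
Summed TMM-scaled CPM (log axis) of each cell type marker list in the 6 libraries, *WT Phf6,RE9a* as circles and *VC Phf6,RE9a* as squares. The mast cell and basophil, megakaryocyte and platelet, and immature myeloid sums are lower in every *VC Phf6,RE9a* library, the last of these through *Kit* and *Cd34*, without which its groups overlap, and the other 6 sums are higher.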

How the data were processed

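RNA-seq of 3 *WT Phf6,RE9a* libraries and 3 *VC Phf6,RE9a* libraries was analysed from the table the authors deposited, with whole-number read counts per Ensembl gene, not normalized, and FPKM, which the authors computed from these counts, the gene length and a library size scaled by size factors. Deposited columns with the authors' own comparison (mean normalized counts, fold changes and p-values) were not used. The submitters' processing notes name Bowtie 0.12.0 and mm8, but 98.26% of the 54409 genes found in GENCODE M21 have identical GRCm38 coordinates, so positions are given as deposited, on GRCm38 (for *Slc18a2*, whose start differs from M21, the deposited span). The counting tool and strandedness are not given in the sources used here.

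In R 4.3.3, counts were filtered (filterByExpr), scaled by TMM and tested with edgeR 4.0.16 (quasi-likelihood, Benjamini-Hochberg, threshold 0.05), after the script had been tested on simulated data. Standard errors are the log2 fold change over the square root of F. With 3 libraries a group, the smallest p of an exact permutation test is 0.1, so none was used. Alternatives were DESeq2 1.42.0, RLE size factors, no filter, a minimum of 10 counts in each library, limma 3.58.1 on log2(FPKM + 1) or log2(FPKM + 0.1), a scale that understates changes of low genes, an adjusted p under 0.01, a minimum change of 2-fold, each library left out in turn and, added after seeing the data, library totals without a scaling factor. Promoters came from RefSeq, which held 7 of the 8 members. Plots used Python 3.11.15 and matplotlib 3.10.9.

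The members and lists were chosen with earlier results of these data known. Genes named by rule are the members and *Phf6*. From the wider pathway they are those that passed with at least 2-fold change or had the highest mean FPKM of their list. In the mast cell and platelet lists they are the 3 most abundant and the 3 with the smallest p. In each other marker list it is the most abundant. Abundance was the mean over all 6 libraries. The 3 genes most like each of the 3 tested members with the highest mean FPKM are also named. Some further genes are named outside this rule, among them *Treml1*, *Gp9*, *Gp1bb*, *Ppbp* and *Pf4*. Some genes of the lists are not reported here by name.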

Additional observations from a re-analysis of the deposited data

How the results depend on the processing

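The log2 fold changes of *Hdc*, *Tph1*, *Slc18a2*, *Slc6a4* and *Phf6* kept their sign and their call under every alternative that could test them. With each library left out in turn they ran from -1.45 to -1.02 for *Hdc*, -2.73 to -2.51 for *Tph1*, -3.69 to -3.40 for *Slc18a2* and -7.45 to -6.10 for *Slc6a4*. *Slc6a4* was not tested where each library needed at least 10 counts, which left 3 members called lower. *Ddc* ran from 0.32 to 0.44 and lost its call without *VC Phf6,RE9a* replicate 13 (0.32), so that the count of members called higher ran from 0 to 1. That count was 0 at an adjusted p under 0.01 and 0 with a minimum change of 2-fold, where the rise of *Ddc* was too small, and 2 without a count filter and 2 with DESeq2, which added *Hnmt*. Over all genes, leaving out a library gave 2179 to 3132 genes called higher and 2511 to 3338 lower. An adjusted p under 0.01 gave 1690 and 2110, and a minimum change of 2-fold gave 1410 and 1625. Library totals without a scaling factor moved the median log2 fold change of the tested genes to 0.16, and 4048 genes were called higher and 2474 lower (62.07% higher, against 48.67% with TMM). *Hdc* then stood at -1.06 and *Ddc* at 0.54, with the same members called. *Maob* passed the threshold under none of its 13 alternatives. The wider pathway gave 6 to 7 genes higher and 7 to 10 lower over its alternatives. No paired analysis was possible because the groups share no replicate number. Depth limits *Maoa*, *Hnmt* and, in *VC Phf6,RE9a* cells, *Slc6a4*, which rest on at most 20 counts in a library.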
